A study of Drosophila melanogaster with 12 samples.

Results

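Gene expression in Drosophila melanogaster eye discs that carried activated Ras together with the insertion EP3037 was compared with expression in control discs. A gene was compared when both groups had 1 FPKM or more of it and its test was completed (status OK) in the authors' deposited table. FPKM is the number of sequenced fragments scaled to transcript length and to the fragments mapped in a library. The rule kept 9011 of 15904 gene rows, and a further 2028 rows had a completed test but under 1 FPKM in a group. The study holds 12 samples in 4 groups of 3, each prepared from 30 pairs of eye discs of wandering larvae of the third instar, and ribosome-depleted total RNA was sequenced as 50 bp read pairs.

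Every group carried the driver sev-GAL4 with UAS-GFP. The control was w1118; sev-GAL4/UAS-GFP; dco2/+, with no activated Ras. In the EP3037 group chromosome 3 was EP3037 over UAS-RasV12, and its label calls it activated Ras with hsrω up. The Ras group had UAS-RasV12 over dco2, and the remaining group had UAS-RasV12 with UAS-hsrωRNAi. The labels list dco2 for the control and the Ras group and not for the other pair of groups. RasV12, EP3037 and the absence of dco2 therefore all separate the EP3037 group from the control, and this comparison taken alone does not tell them apart. The Ras group shares dco2 with the control and differs from it by RasV12, and the RNAi group lacks dco2 as the EP3037 group does. Levels in the Ras and RNAi groups are therefore given beside many of the results. Whether samples of one group stem from separate crosses is not stated in the labels, so a p-value covers the spread among these samples alone, and that spread may be technical. The driver is active in a subset of cells, whereas the RNA came from whole discs, so fewer cells of a type and less RNA per cell cannot be told apart.

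The eye disc is the larval epithelium that forms the compound eye. Its photoreceptors are recruited behind a moving furrow, and the receptor tyrosine kinase Sevenless, acting through Ras and MAP kinase, directs a precursor cell to become the photoreceptor R7. A constitutively active Ras such as RasV12 in sevenless-expressing cells turns cone cell precursors into extra R7 cells and roughens the adult eye. The long noncoding RNA hsrω, the product of the Hsromega gene, gathers hnRNP proteins in nuclear omega speckles and is strongly induced by heat shock. Discs overgrown, the product of dco, is a casein kinase I with roles in growth and in the circadian clock.

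The authors deposited 1 pooled level per gene and group, so no SD or n stands beside a level, and overlap between samples of the groups could not be read. A gene is said here to have risen or fallen only where its deposited q was at or under 0.05. A fold change against the control given without a q belongs to a gene at q = 0.00789, the lowest value of the authors' deposited table.

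The genes named by the genotypes were read first. Hsromega (chromosome 3R, 21296127 to 21317836, plus strand, noncoding) stood at 543 FPKM in the control, 606 with EP3037, 389 in the Ras and 398 in the RNAi group. The log2 difference of 0.16 was not called (p = 0.84, as listed in the authors' deposited table), so a higher level of hsrω was not shown in whole discs against this control. Ras85D, the endogenous Ras gene, whose row can also take reads of the transgene (chromosome 3R, 9510561 to 9513067, minus strand), rose 1.91-fold, from 74.4 to 142 FPKM. The Ras and RNAi groups held 121 and 151 FPKM of it. The sev gene went from 22.6 to 28.99 FPKM and dco (chromosome 3R, 31054085 to 31061210) from 37.7 to 40.4 FPKM, and neither was called. The row that joins CG32795 with the eye colour gene w, carried by many transgenes as a marker, was at 53.4 and 86.3 FPKM and was not called. Genes that define the eye disc were all present in both groups: eya stood at 111 and 134 FPKM, dac at 59.5 and 57.4, so at 54.1 in both, gl at 48.1 and 44.1, ey at 32.6 and 26.3, and the neuronal gene elav at 41.8 and 53.4. None of these was called.

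Most genes had closely similar levels in both groups. The median log2 change was -0.02, the middle 50% of genes lay between -0.15 and 0.13, and 93.1% of them were within 1.5-fold of the control. Of the 9011 compared genes, 20 rose (0.222%) and 26 fell (0.289%), which is 0.51% together. At an unadjusted p of 0.05 or less, 133 were higher (1.48%) and 146 lower (1.62%). A difference of at least 2-fold was seen in 83 genes above (0.921%) and 89 below the control (0.988%), and 29 of these 172 genes were called. Of the 143 uncalled ones, 49 had a longest annotated transcript under 200 nt, such as small nucleolar RNAs, where 18.2% of 275 genes passed 2-fold against 0.5% of the 1600 genes in the class of longest transcripts. The smallest called rise was 0.74 and the smallest called fall -0.77 on the log2 scale. At the edge of the rule, hebe with 1.00 FPKM in the control and CR45620 with 1.00 FPKM in the EP3037 group lay just inside, and CG10311 and CR41601 at 0.9998 and 0.999 FPKM just outside.

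**Figure D1:**
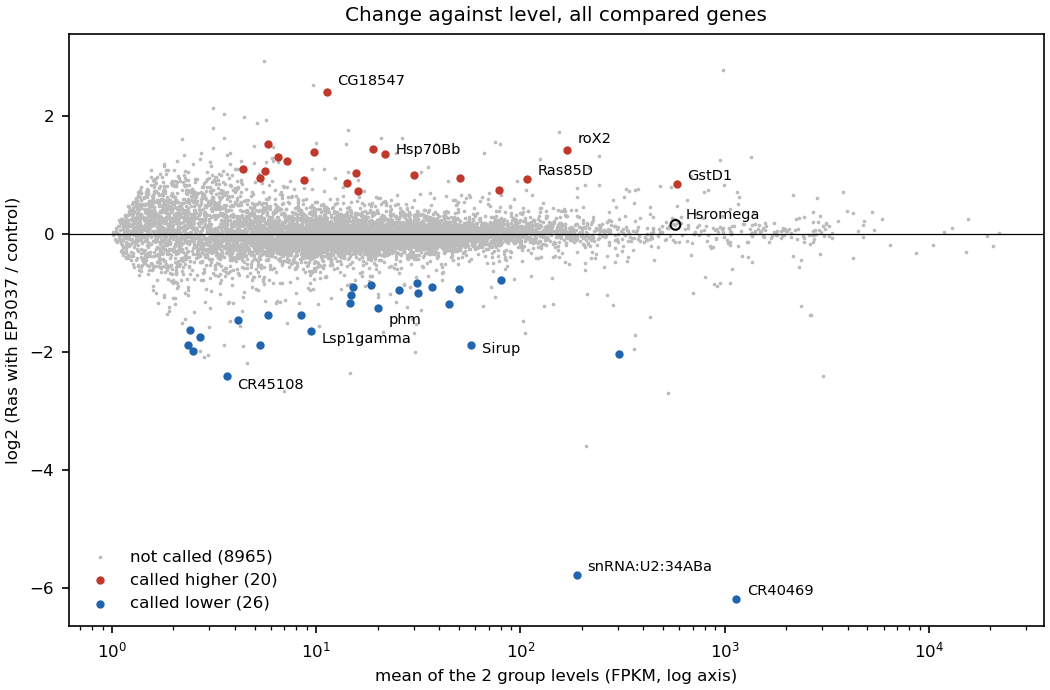
Each point is 1 of 9011 compared genes, placed by the mean of its levels in both groups (FPKM, log axis) and its log2 change from control to Ras with EP3037. Red points are the 20 genes called higher, blue points the 26 called lower, grey points the uncalled genes, and the open circle is Hsromega, which lies near 0.

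The same rule was applied to the comparisons that involve the Ras group. From control to Ras, 37 of 8962 genes were higher (0.413%) and 25 lower (0.279%). From Ras to EP3037, 12 of 9052 genes were higher (0.133%) and 55 lower (0.608%). These comparisons share the control or the EP3037 samples with the one described here, so levels in all 4 groups are given side by side below.

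The genes that rose included enzymes of detoxification and DNA repair. GstD1 (chromosome 3R, 12367817 to 12369268), a glutathione transferase that conjugates toxic compounds, was the most abundant and rose 1.80-fold, from 415 to 747 FPKM, with 707 in the Ras and 678 in the RNAi group. Of 26 glutathione transferase genes compared, GstD1 was the 1 called, where 0.222% of all compared genes rose. The list median was 0.00, and 5 members were higher and 1 lower at an unadjusted p of 0.05 or less. Of all compared genes 1.48% were higher and 1.62% lower at that p. Beside it in the GstD cluster, GstD10 stood at 6.04 and 12.9 FPKM and GstD3 at 40.3 and 58.7 FPKM, both uncalled, while GstD9 was at 23.2 FPKM in both groups. The photolyase gene phr, whose enzyme repairs ultraviolet damage in DNA, rose 2.63-fold, from 5.37 to 14.1 FPKM. It stood at 13.7 and 12.9 FPKM in the Ras and RNAi groups, and its row overlaps 1 other.

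The largest rise among the called compared genes was that of CG18547 (chromosome 3R, 11978574 to 11980390), 5.34-fold, from 3.56 to 19.0 FPKM. Its level in the Ras and RNAi groups was 12.1 and 11.4 FPKM, above the control and below the EP3037 group. CG30345 rose 2.87-fold, from 2.999 to 8.60 FPKM, and stood at 1.32 and 2.30 FPKM in the Ras and RNAi groups, so the EP3037 level was the highest of the 4. The noncoding CR43148 was also highest there, with 4.29 FPKM in the control, 3.67 and 3.73 with RasV12 alone and with RNAi and 10.1 with EP3037 (in the authors' deposited table, q = 0.0438). So did pst, a gene known for resistance to Drosophila C virus, at 10.01, 10.6, 9.42 and 18.3 FPKM in that order (in the authors' deposited table, q = 0.0240). CR32207, another noncoding row, had 10.3 FPKM in the control, 12.1 and 13.4 with RasV12 alone and with RNAi and 21.0 with EP3037 (in the authors' deposited table, q = 0.0192).

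A second set of risen genes also stood above the control in the Ras and RNAi groups. CG15630, listed as fipi in RefSeq, rose 2.70-fold, from 10.2 to 27.7 FPKM, with 16.5 and 24.9 in the Ras and RNAi groups, and overlaps 1 other row. The protein-coding genes CG45105 and CG14516 rose 2.15-fold (2.77 to 5.97 FPKM) and 1.93-fold (34.6 to 66.6 FPKM, overlapping 1 row). CG5455 rose 2.09-fold (q = 0.0284) and CG31676 1.68-fold (q = 0.0192, overlapping 1 row) in the authors' deposited table. The tubulin gene alphaTub85E, known from testis and muscle attachment cells, went from 3.75 to 9.32 FPKM, 2.49-fold (in the authors' deposited table, q = 0.0240). The abundant tubulin gene alphaTub84B was at 1715 and 1755 FPKM and was not called. The kinase gene sff, which acts at synapses and in protein glycosylation, rose 1.90-fold, from 6.002 to 11.4 FPKM. The FGF ligand gene ths rose 1.67-fold, from 12.1 to 20.1 FPKM (in the authors' deposited table, q = 0.0469, overlapping 3 rows). Its receptor gene htl was at 2.94 and 5.08 FPKM and was not called (p = 0.00375, as listed in the authors' deposited table).

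CHKov1 (chromosome 3R, 25323156 to 25329316), a choline kinase-like gene with a known natural transposon allele linked to sigma virus resistance, rose 2.00-fold, from 20.1 to 40.1 FPKM. The Ras group held 23.3 FPKM and the RNAi group 39.9 FPKM, so levels were alike within the pair of groups labelled with dco2 and within the pair without it. CG31436, the nearest called row on that arm, had the opposite order, with 4.22 and 4.26 FPKM in the control and Ras groups and 0.342 and 0.535 FPKM in the RNAi and EP3037 groups. CG18600, listed as Polr1E in RefSeq, a subunit gene of RNA polymerase I, fell 1.86-fold, from 47.9 FPKM in both the control and the Ras group to 25.7 with EP3037, and stood at 18.0 in the RNAi group. The curled gene cu, which encodes a nocturnin-type deadenylase, was at 23.8, 24.7, 15.0 and 13.2 FPKM in the order control, Ras, RNAi and EP3037 (in the authors' deposited table, q = 0.0399 against the control). For these 4 genes on 3R, dco2 and the hsrω constructs cannot be told apart.

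roX2 (chromosome X, 11579065 to 11580432), a noncoding RNA that helps to target dosage compensation to the male X, rose 2.70-fold, from 91.5 to 247 FPKM. It was at 517 FPKM in the Ras group and 175 in the RNAi group. Its partner roX1 went from 137 to 297 FPKM, with 314 in Ras and 322 in RNAi, and was not called (p = 0.0518, as listed in the authors' deposited table). Both are transcribed mainly in males, and the sex of the larvae is not given in the labels. Of 15 compared genes for dosage compensation and sex, roX2 was the 1 called, where 0.51% of all compared genes were called. The list median was -0.02. The part of the sex of the larvae in these levels was not tested.

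The 2 largest falls among called genes were in noncoding transcripts. CR40469 (chromosome X, 122493 to 122706) fell 72.6-fold, from 2249 FPKM in the control to 30.96 with EP3037. The Ras and RNAi groups were as low, at 27.8 and 22.2 FPKM. A copy of the U2 spliceosomal RNA gene, snRNA:U2:34ABa (chromosome 2L, 13211925 to 13212116), fell 54.9-fold, from 370 to 6.74 FPKM, and was at 15.8 and 7.35 FPKM in the other groups. The neighbouring copy snRNA:U2:34ABb was at 43.8 and 45.0 FPKM. The 6 U2 rows summed to 443 FPKM in the control, 162 in Ras, 66.7 in RNAi and 85.0 with EP3037, and reads of near-identical copies can be assigned to either. CR45108 fell 5.30-fold, from 6.17 to 1.16 FPKM, with 1.29 and 1.06 in the other groups, and overlaps 1 row. A row that joins CG13900 (Sf3b3 in RefSeq, a splicing factor subunit) with CR45184 and a small nucleolar RNA fell 4.09-fold, from 490 to 120 FPKM. That row overlaps 8 others, and stood at 267 and 115.2 FPKM in the Ras and RNAi groups.

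3 genes of the larval fat body fell. The storage protein genes Lsp1gamma and Lsp2 fell 3.10-fold (14.3 to 4.62 FPKM) and 2.58-fold (12.1 to 4.69 FPKM). Fbp1, whose protein takes up storage protein into the fat body late in larval life, fell 2.74-fold, from 6.06 to 2.21 FPKM. These were the 3 called of 14 compared fat body markers, whose median log2 change was -0.56 against -0.02 for all compared genes, and 5 were lower and 0 higher at an unadjusted p of 0.05 or less. Over all compared genes 0.289% fell and 1.62% were lower at that p. Of the 14 markers 10 were lower and 4 higher than the control by any amount, where 4126 of all 9011 compared genes were higher. Among the 4 higher markers were the joint row of Adh and Adhr (log2 change 0.61) and regucalcin (110.5 and 136 FPKM), both uncalled. Lsp1gamma was at 3.17 and 1.59 FPKM in the Ras and RNAi groups, Lsp2 at 3.68 and 1.99, and Fbp1 at 2.27 and 1.30, so the control was the high group for all of them. The summed level of the 14 compared markers was 579 FPKM in the control and 571 with EP3037, most of it from Obp99a at 327 and 322 FPKM. None of the list's 17 rows was at 0 in both groups. The part of fat body tissue in these falls was not tested.

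Of the genes for ecdysone synthesis, the steroid pathway of the ring gland, 2 fell. The cytochrome P450 gene phm (chromosome X, 18685766 to 18688433) fell 2.37-fold, from 28.4 to 12.0 FPKM. spok, which encodes an earlier enzyme of the pathway (chromosome 3R, 3322810 to 3354486), fell 2.00-fold, from 42.0 to 21.0 FPKM (in the authors' deposited table, q = 0.0325). The Ras group held 35.5 and 53.9 FPKM of these genes and the RNAi group 18.0 and 15.0 FPKM. Of 11 compared genes of the pathway 0 rose, and the 2 that fell compare with 0.289% of all compared genes. At an unadjusted p of 0.05 or less 4 were lower, against 1.62% of all compared genes, and the median was -0.42. The later enzyme gene sad stood at 30.8 and 15.2 FPKM and the early oxygenase gene nvd at 6.90 and 4.16 FPKM, both uncalled. The P450 genes spo and Cyp6t3 went the other way, with log2 changes of 0.69 and 0.23, and were not called. The 11 compared genes summed to 218 FPKM in the control, 276 in Ras and 154 with EP3037. None of the pathway's 13 rows was at 0 in both groups. The part of ring gland tissue in these levels was not tested.

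Of 24 sarcomere genes compared, 0 passed the q threshold. Over all 9011 compared genes 4126 were higher than the control, and of these 24 genes 3 were higher and 21 lower. An unadjusted p of 0.05 or less was reached by 10 of the lower ones, against 1.62% over all compared genes, and the median log2 change was -0.44. The troponin T gene up was at 10.6 and 5.35 FPKM (in the authors' deposited table, q = 0.0545), the myosin light chain gene Mlc1 at 18.2 and 10.1, Mlc2 at 24.6 and 15.9, and the heavy chain gene Mhc at 11.4 and 8.12. The most abundant members differed less: the tropomyosin gene Tm1 was at 250.5 and 259 FPKM, the row of Msp300 at 138 and 124 and the row of the actin gene Act57B at 46.8 and 46.6, and the log2 change of the flight muscle actin gene Act88F was 0.21, all uncalled. Mp20, a calponin-type muscle protein gene outside that list, fell 1.93-fold, from 33.6 to 17.4 FPKM (in the authors' deposited table, q = 0.0284), with 25.6 and 17.3 in the Ras and RNAi groups. The 24 compared genes of the list summed to 669 FPKM in the control, 632 in Ras and 595 with EP3037. None of the list's 28 rows was at 0 in both groups, and the part of muscle attached to the discs was not tested. Haemocyte markers gave 0 calls among 20 with a median of -0.04, summing to 381 and 399 FPKM. Glial markers gave 0 calls among 14 with a median of 0.02. Digestive enzymes of the midgut had 4 of 56 rows compared and 0 called among these, and salivary gland genes 5 of 18 with 0 called. Over all compared genes 0.51% were called, and at that share lists of these sizes hold few calls or none.

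**Figure D2:**
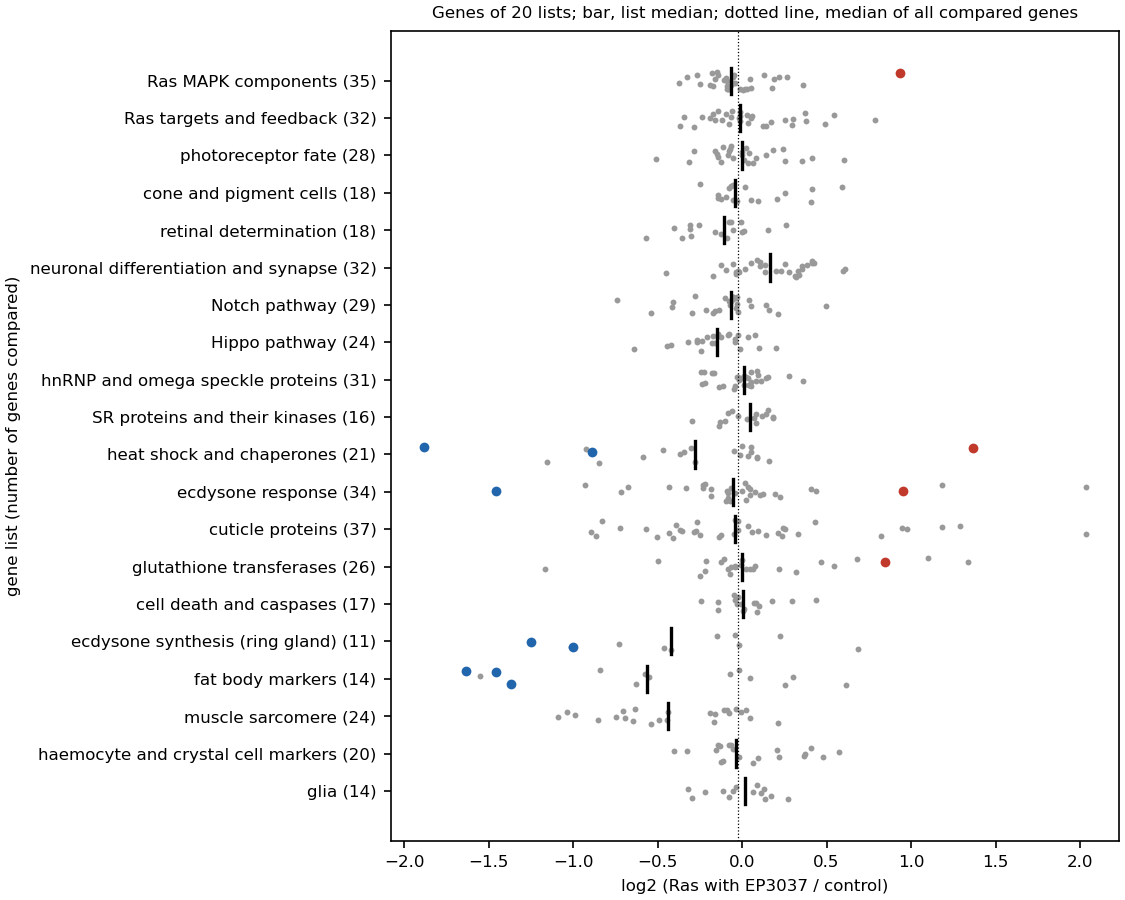
Grey points are uncalled genes, red points genes called higher and blue points genes called lower, for 20 gene lists, placed by log2 change from control to Ras with EP3037. The black bar is each list's median and the dotted line the median of all compared genes, and the lists for ecdysone synthesis, fat body and muscle have their medians at -0.42, -0.56 and -0.44.

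Several further genes fell that encode enzymes, receptors and cytoskeletal proteins. Dscam4, a cell adhesion gene of the immunoglobulin family (overlapping 1 row), fell 3.96-fold, from 4.004 to 1.011 FPKM, and the tachykinin-type receptor gene TkR86C 3.07-fold, from 3.64 to 1.18 FPKM. Both were near these low levels in the Ras and RNAi groups, at 1.48 and 1.496 FPKM for Dscam4 and 1.56 and 1.57 FPKM for TkR86C. Sirup, a mitochondrial assembly factor gene (overlapping 1 row), fell 3.66-fold, from 90.1 to 24.7 FPKM, and CG45087 2.24-fold, from 20.2 to 9.02 FPKM. Both were low in the Ras group too, at 18.3 and 8.88 FPKM, and near the control in the RNAi group, at 81.6 and 21.5 FPKM. CG32364, listed as tut in RefSeq, fell 3.68-fold, from 8.32 to 2.26 FPKM (in the authors' deposited table, q = 0.0325), with 3.71 and 0.917 in the Ras and RNAi groups. The carbonic anhydrase gene CAH2 fell 3.33-fold, from 4.14 to 1.24 FPKM (in the authors' deposited table, q = 0.0192), with 3.02 and 2.53 in the Ras and RNAi groups.

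In a further set of called genes the EP3037 group had the lowest of the 4 levels. Map205, which encodes a microtubule-binding protein (chromosome 3R, 32055279 to 32068441), fell 1.90-fold, from 65.7 to 34.6 FPKM, and was at 82.2 and 88.4 FPKM in the Ras and RNAi groups. GV1 had 19.9 FPKM in the control, 20.5 and 19.6 with RasV12 alone and with RNAi and 9.70 with EP3037 (in the authors' deposited table, q = 0.0140 against the control). The other 3 groups were close to each other for GV1. GNBP3, which encodes a sensor of fungal glucans upstream of Toll, fell 2.27-fold, from 61.8 to 27.2 FPKM, with 52.9 and 44.9 in the other groups. The aminopeptidase gene SP1029 went from 39.9 to 22.4 FPKM, with 58.2 in the Ras and 27.1 in the RNAi group (in the authors' deposited table, q = 0.0359 against the control). Map205, GV1, GNBP3 and SP1029 were also called between the Ras and EP3037 groups. The serine protease gene ea, known for dorsoventral patterning of the embryo, was at 8.38, 5.58, 7.67 and 3.26 FPKM in control, Ras, RNAi and EP3037 discs (in the authors' deposited table, q = 0.0140 against the control). The chitin deacetylase gene serp, which shapes apical matrix, was at 101, 79.3, 95.4 and 59.4 FPKM in those discs (in the authors' deposited table, q = 0.0140 against the control).

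**Figure D3:**
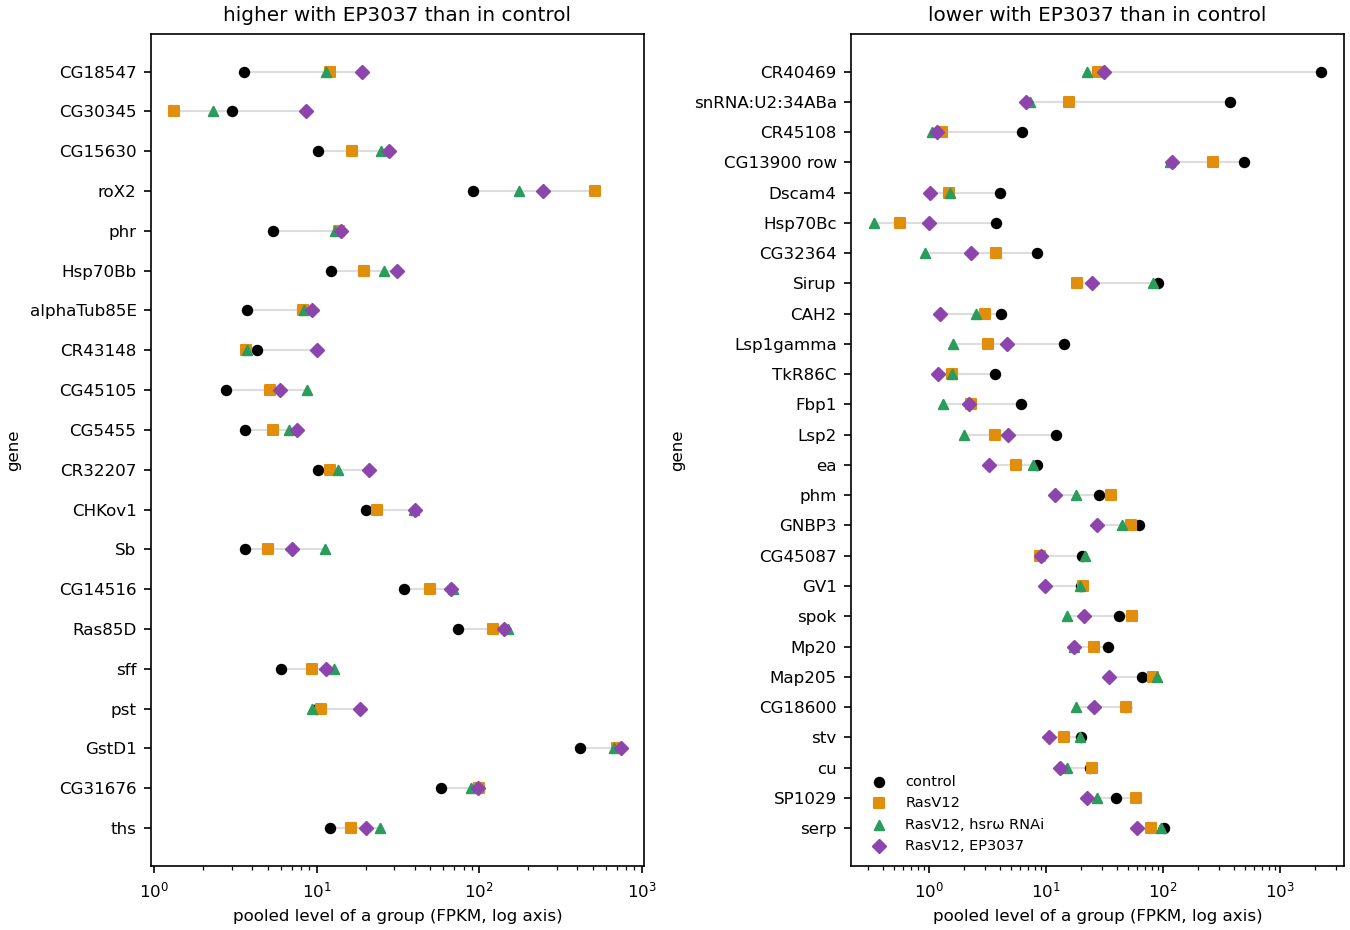
Pooled levels (FPKM, log axis) of the 20 genes called higher, left, and the 26 called lower, right, in the control and the 3 RasV12 groups. Each symbol is 1 group, and genes such as Map205, GV1, CG30345 and CR43148 have the EP3037 group apart from all others, while CR40469 and snRNA:U2:34ABa have the control apart.

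The Ras pathway and the genes of eye differentiation were read as lists, against the 0.51% called over all compared genes. At that share lists of this size hold few calls or none, so their call counts are near the background. Of 35 compared components of Ras and MAP kinase signalling, 1 rose, Ras85D, and 0 fell, with a median of -0.06. Of 32 targets and feedback genes of the pathway 0 were called, with a median of -0.01: the repressor gene aop was at 68.1 and 67.6 FPKM, the ligand gene spi at 133 and 136, and the inhibitor gene sty at 40.4 and 56.7 FPKM (p = 0.0173, as listed in the authors' deposited table). Of 28 photoreceptor fate genes 0 were called, with a median of 0.00. Among them the proneural gene ato stood at 47.8 and 33.6 FPKM, and the row of svp, a fate gene of outer photoreceptors, with CG44037 at 9.26 and 14.1 FPKM. Cone and pigment cell genes gave 0 calls among 18, and retinal determination genes 0 among 18 with a median of -0.11. Among 32 genes of neuronal differentiation 0 were called, with a median of 0.17. Of these, 23 were higher than the control, where 4126 of all 9011 compared genes were higher. The neuronal transcription factor gene scrt, 1 of 2 members past an unadjusted p of 0.05, was at 29.9 and 45.7 FPKM, with 46.0 and 71.2 in the Ras and RNAi groups.

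The remaining signalling lists had 0 calls, which is near the background of 0.51% for lists of their size. In the Notch pathway, 6 of 29 genes were higher and 23 lower, where 4126 of all 9011 compared genes were higher by any amount. The median of the pathway was -0.06, and the neuralized inhibitor gene Brd was at 180 and 107 FPKM (in the authors' deposited table, q = 0.0545). The Hippo pathway had a median of -0.15 over 24 genes, of which 20 were lower. The median was -0.07 over 40 genes of the Hedgehog, Dpp and Wg pathways and -0.06 over 28 of the insulin and TOR pathway. At an unadjusted p of 0.05 or less, 3 Notch, 2 Hippo and 1 insulin and TOR genes were lower and 0 higher. Over all compared genes 1.62% were lower at that p. The insulin and TOR gene was the translation inhibitor gene Thor. Thor went from 8.85 to 4.02 FPKM, with 17.4 in the Ras and 12.98 in the RNAi group, and was uncalled against the control. Cell death genes had a median of 0.00 over 17, JNK pathway genes 0.01 over 20 and cell cycle genes 0.02 over 52, with 0 calls in each.

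Ecdysone response genes had 1 call in each direction among 34, with a median of -0.05. Over all compared genes 0.51% were called. Sb, which encodes a membrane protease needed for disc eversion, rose 1.93-fold, from 3.63 to 7.02 FPKM (in the authors' deposited table, q = 0.0192). The member that fell was Fbp1, which is also counted among the fat body markers above. ImpE2, an ecdysone-induced gene of disc eversion, went from 991 to 603 FPKM, with 1282 in the Ras and 873 in the RNAi group, and was uncalled (p = 0.0292, as listed in the authors' deposited table). The lactate dehydrogenase gene ImpL3 had 17.4 FPKM in the control, 6.92 and 35.8 with RasV12 alone and with RNAi and 9.16 with EP3037 (in the authors' deposited table, q = 0.0664 against the control). Cuticle protein genes had 37 of 134 rows compared, 0 called and a median of -0.04. Lcp4, a larval cuticle protein gene, went from 8.51 to 16.4 FPKM, uncalled, with 77.9 in the Ras group.

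Genes on the list of hnRNP and omega speckle proteins had log2 changes close to 0. Of 31 hnRNP and omega speckle genes 0 were called, against a background of 0.51%, 0 had an unadjusted p of 0.05 or less, and the log2 changes ran from -0.24 to 0.36 with a median of 0.01. Hrb27C, a core omega speckle protein gene, was at 545 and 530 FPKM, the helicase gene Rm62 at 507 and 436, and Syp at 362 and 371. Of 16 SR protein and kinase genes 0 were called, with a median of 0.05. Cytosolic ribosomal protein genes had 0 calls among 86 and mitochondrial ones 0 among 75.

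Heat shock genes had 1 rise and 2 falls among 21, with a median of -0.28. Over all compared genes 0.222% rose and 0.289% fell. Hsp70Bb rose 2.57-fold, from 12.2 to 31.3 FPKM, while its near-identical neighbour Hsp70Bc fell 3.68-fold, from 3.70 to 1.00 FPKM (in the authors' deposited table, q = 0.0140), so reads may be split between them and each value is uncertain. The 6 Hsp70 rows summed to 16.6 FPKM in the control, 20.2 in Ras, 26.7 in RNAi and 32.9 with EP3037. The co-chaperone gene stv fell 1.85-fold, from 19.7 to 10.6 FPKM (in the authors' deposited table, q = 0.0399). The abundant chaperone genes Hsp83, at 835 and 830 FPKM, and Hsc70-4, at 1340 FPKM in both groups, were not called.

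A further 25 rows passed the q threshold with a group under 1 FPKM, 8 higher and 17 lower, so that 71 of 11039 rows with a completed test were called (0.643%). Most of those named here were chosen after their values were seen. The P450 genes Cyp4p2 and Cyp4p1, enzymes of a detoxification family, went from 0.470 to 48.9 FPKM and from 0.454 to 12.6 FPKM (q = 0.0359 for Cyp4p1 in the authors' deposited table). Cyp4p2 was at 44.8 and 40.4 FPKM and Cyp4p1 at 10.4 and 11.3 FPKM in the Ras and RNAi groups, so the control had the lowest level. Both share a deposited locus (chromosome 2R, 9227785 to 9247249) with Cyp4p3 and hig, which were uncalled at 0.258 and 2.41 FPKM and at 0.915 and 2.46 FPKM. Of the 28 compared genes on the cytochrome P450 list 0 were called, against 0.51% of all compared genes, and the list median was 0.02.

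Among the lower rows, 6 lay side by side on chromosome 3L, from 22643881 to 22649287: CR45381, CG33766, CG33767, CG33768, CG33769 and CG33770. These were all 6 rows of that stretch, stood between 0.841 and 1.77 FPKM in the control and were listed at 0 in all 3 RasV12 groups. The proteasome subunit gene Prosbeta2R1, known from testis, had 1.53 FPKM in the control and was listed at 0 in the Ras and EP3037 groups. A joint row of the sugar receptor genes Gr64a to Gr64e was at 5.26, 6.49, 6.541 and 0.418 FPKM in the order control, Ras, RNAi and EP3037. CG18294 was at 4.28, 5.77 and 5.03 FPKM and listed at 0 with EP3037, so these last rows had their lowest level in the EP3037 group. Of the higher rows, the trypsin gene alphaTry and CG3397 were listed at 0 in the control and at 1.53 and 0.417 FPKM with EP3037, and CG3397 lies within 20 kb of CG18547. CG6149 had 1.65 FPKM with EP3037, 1.89 in Ras and 1.44 in RNAi, and the control value was 0.

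**Figure D4:**
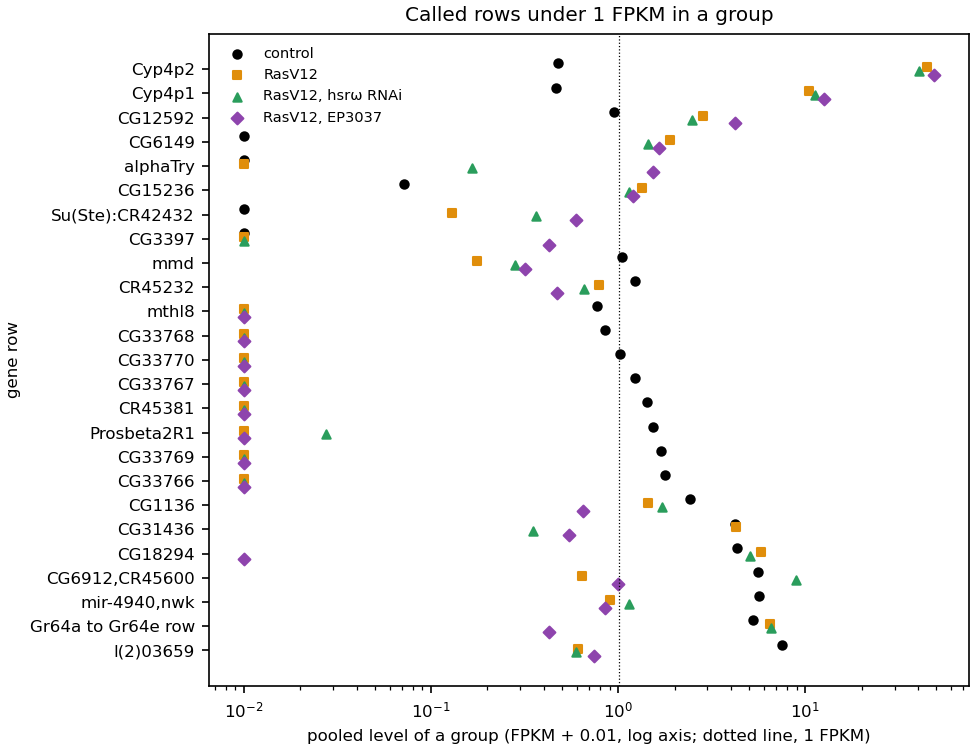
Levels of the 25 called rows with under 1 FPKM in the control or the EP3037 group, drawn as FPKM plus 0.01 on a log axis so that rows listed at 0 can be shown at the left edge. The 6 neighbouring rows of chromosome 3L have a level in the control and are listed at 0 in the 3 RasV12 groups, while Cyp4p1 and Cyp4p2 have their lowest level in the control.

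Of the 46 called genes, 32 lay on chromosome 3. On arm 3R 18 of 2121 compared genes were called (0.849%) and on 3L 14 of 1801 (0.777%), against 5 of 1640 on 2L (0.305%), 6 of 1879 on 2R (0.319%), 3 of 1487 on X (0.202%) and 0 of 83 on chromosome 4. This is 0.816% of 3922 compared genes on chromosome 3 and 11 of 3519 on chromosome 2 (0.313%). Of the calls on 3L 11 were lower and 3 higher, and on 3R 8 were lower and 10 higher. The medians of the arms lay between -0.06 for X and 0.11 for chromosome 4. Within 100 kb of Hsromega 18 compared genes had a median of -0.13 and 0 calls, within 100 kb of dco 3 genes had a median of 0.12 and 0 calls, and within 100 kb of Ras85D 27 genes had a median of -0.02 and 0 calls beside Ras85D itself. Of all 71 called rows, 18 lay in 7 runs with gaps under 20 kb, the longest being the 6 rows of 3L. The labels give the groups different copies of chromosome 3, and the part of those copies in the calls was not tested.

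**Figure D5:**
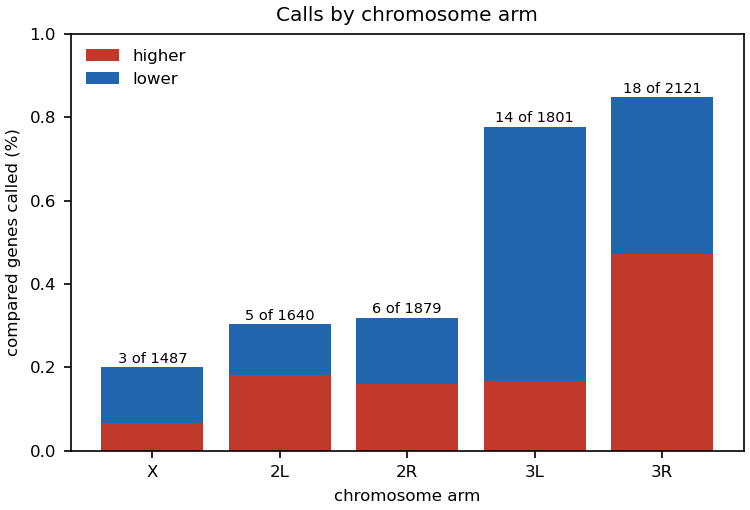
Percentage of compared genes called on each large chromosome arm, with genes called higher in red and genes called lower in blue. The counts above the bars run from 3 of 1487 on X to 18 of 2121 on 3R.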

How the data were processed

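RNA-seq of eye discs was deposited by the authors as 6 tables, 1 for each pair of groups. Per the submitters' processing notes, the tools were TopHat, Bowtie, Cufflinks and Cuffdiff 2.1.1 on build dm6. For the annotation, filters and strand counting, nothing is given in the sources used here. Deposited values are FPKM per gene and group, pooled by the authors over 3 samples, with the authors' p-value and q-value per the file headers. Benjamini-Hochberg adjustment of the p-values over 65928 completed tests of the 6 tables gave the deposited q (largest difference 5.24e-07). Depth per sample is unknown, so no intervals were computed.

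Calls used the authors' test as deposited, since pooled values allow no new test. The log2 changes, medians, 45 gene lists and figures were computed with Python 3.11.15, numpy 2.4.6, pandas 2.3.3 and matplotlib 3.10.9. The length trend was a running median over 501 genes, tested on simulated data. Ensembl release 115 gave strand, biotype and transcript length, matching 8975 of the 9011 compared rows, and RefSeq gave synonyms. Coordinates are dm6, from the deposited tables.

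The genes and lists were chosen with earlier results of these data known. Named genes were Hsromega, Ras85D, sev, dco and w, the 15 rises and 15 falls of largest size among called rows of a single gene spanning at least 200 nt, the 5 most abundant called genes in each direction, called list members (up to 6 a list), up to 3 abundant uncalled members of a list and up to 3 called genes listed at 0. Eye disc markers, family members beside a named gene, list members at an unadjusted p of 0.05 or less and other called genes were chosen after their values were seen. Alternatives changed the threshold, adjustment, FPKM minimum, scaling and gene rows used.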

Additional observations from a re-analysis of the deposited data

Results flagged for a closer look

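Of the 46 compared genes called against the control, 13 also passed a q of 0.05 between the EP3037 group and the Ras group in the authors' deposited table. Over all 9052 genes compared between those groups 0.133% were called higher and 0.608% lower. Both comparisons use the same EP3037 samples, so overlap between them arises from the sharing too, and nothing is read from the count of 13. Lower with EP3037 than in the Ras group were phm, with a log2 difference of -1.57, SP1029 (-1.38), spok (-1.36), Map205 (-1.25), the joint row of CG13900, CR45184 and snoRNA:Me5.8S-G74 (-1.15), GV1 (-1.08), GNBP3 (-0.96), cu (-0.91) and CG18600 (-0.90). Higher were CG15630 (0.74), CHKov1 (0.78), CR43148 (1.46) and CG30345 (2.71). These genes include the pair of steroid enzyme genes, phm and spok, and both CHKov1 and CG18600, whose levels were alike in the groups labelled with dco2. The Ras and EP3037 groups differ in dco2 as well as in EP3037, and the RNAi group lacks dco2 too. For GV1, Map205, CR43148 and CG30345 the RNAi group, at 19.6, 88.4, 3.73 and 2.30 FPKM, was nearer to the Ras group, at 20.5, 82.2, 3.67 and 1.32 FPKM, than to the EP3037 group, at 9.70, 34.6, 10.1 and 8.60 FPKM. For GNBP3 too, the RNAi level of 44.9 FPKM was nearer to 52.9 in the Ras group than to 27.2 with EP3037. For the others, CHKov1, CG18600, cu, phm, spok, SP1029, CG15630 and the joint CG13900 row, the RNAi group was nearer to the EP3037 group.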

How the results depend on the processing

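The count of 20 genes called higher became 12 at a q of 0.01, 133 at an unadjusted p of 0.05, 13 under a minimum of 5 FPKM and 11 when a 2-fold change was also required. The count of 26 called lower became 15 at a q of 0.01, 146 at an unadjusted p of 0.05, 43 with no FPKM minimum and 16 with at least 5 FPKM. Genes at least 2-fold higher fell in number from 83 to 48 on the log2(FPKM + 1) scale and to 29 with at least 5 FPKM, and those at least 2-fold lower from 89 to 41 with at least 5 FPKM. A stricter limit or minimum leaves fewer genes by construction. Adjusted over this table alone, 18 higher and 21 lower calls were counted. Leaving out markers of other tissues gave 20 and 21. That setting drops the listed rows from the count and repeats no test, so the part of other tissues in the remaining calls was not tested. Over the 3 scalings tried, 138 of 138 values of called genes kept their direction, which was fixed in advance. The smallest called change was 0.74, whereas the median subtracted was -0.02 and the length trend ran from -0.07 to 0.19. Adding 1 to both levels cannot change a direction. Subtracting the length trend moved 3 of 45 list medians by over 0.1. No paired analysis was possible because the deposited tables hold 1 pooled value per group, and for the same reason no sample could be left out in turn. Depth is unknown, so no limit of detection could be set for rows listed at 0.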
